A study of Mus musculus with 20 samples.

Results

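The peaks described here lie at 4 genes, Lin28b, Igf2bp1, Igf2bp3 and Hmga2, in mouse hematopoietic stem cells (HSCs). They were chosen by position, as every peak of 8 deposited lists that overlaps 1 of 4 windows in mm9 coordinates, and the genes were picked with earlier results of these lists known. The windows are chr10:45090001-45205000 for Lin28b, chr11:95810001-95880000 for Igf2bp1, chr6:49030001-49180000 for Igf2bp3 and chr10:119790001-119930000 for Hmga2. They hold 146 of the 218887 listed peaks, namely 24 at Lin28b, 31 at Igf2bp1, 42 at Igf2bp3 and 49 at Hmga2. Because the same lists chose and describe these genes, all values are given as a description, with no test.

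Chromatin immunoprecipitation sequencing (ChIP-seq) was carried out for H3K4me3, H3K27ac, H3K4me1 and H3K27me3 at 2 stages of the B6129SF1 strain. Fetal HSCs came from the liver at embryonic day 14.5 and adult HSCs from the bone marrow of mice aged 6 to 8 weeks. At both stages the cells were sorted as lineage-negative, Sca1-positive, cKit-positive and CD135-negative, a gate that can also hold multipotent progenitors, and each ChIP used 50000 cells. The labels name 2 replicates per mark and stage, but each list combines them, so that no value below has a replicate error. Stage therefore cannot be told apart from library preparation, depth or the settings of each call, nor from the organ, liver or bone marrow. The lists do not measure RNA, and the identity of the sorted cells was not tested with marker genes.

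The 4 genes belong to a set of RNA-binding and chromatin proteins that is typical of fetal and embryonic cells. Lin28b binds precursors of the let-7 microRNAs and blocks their maturation, and let-7 represses the messenger RNAs of Hmga2 and of the Igf2bp family. In blood, the Lin28b, let-7 and Hmga2 axis is known for its part in the self-renewal and lineage output of fetal HSCs, and it is turned down after birth. H3K4me3 marks active or poised promoters, H3K27ac active promoters and enhancers, H3K4me1 enhancers and promoter flanks, and H3K27me3 regions held by Polycomb repressors. A promoter that carries both H3K4me3 and H3K27me3 is called bivalent.

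To show what kind of DNA the promoter marks lie near, the RefSeq promoter windows are printed for the 3 of 4 members that the promoter table holds. Each runs from 250 bases before to 50 bases after an annotated gene start, 300 bases in all, on the minus strand of GRCm38.p6. That is a later build than the peaks', so the windows were not placed against single peaks. Capitals mark CACGTG, the E-box bound by MYC-type and USF-type factors, which reads the same on both strands and was chosen after the sequences were seen. The Lin28b window is chr10:45470152-45470451, the Igf2bp3 window chr6:49214905-49215204 and the Hmga2 window chr10:120476420-120476719.
Lin28b: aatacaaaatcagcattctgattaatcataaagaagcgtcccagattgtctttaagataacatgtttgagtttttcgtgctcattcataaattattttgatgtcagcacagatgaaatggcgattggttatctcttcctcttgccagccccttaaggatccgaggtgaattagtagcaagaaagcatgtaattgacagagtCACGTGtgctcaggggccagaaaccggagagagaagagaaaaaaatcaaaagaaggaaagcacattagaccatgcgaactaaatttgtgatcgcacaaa
Igf2bp3: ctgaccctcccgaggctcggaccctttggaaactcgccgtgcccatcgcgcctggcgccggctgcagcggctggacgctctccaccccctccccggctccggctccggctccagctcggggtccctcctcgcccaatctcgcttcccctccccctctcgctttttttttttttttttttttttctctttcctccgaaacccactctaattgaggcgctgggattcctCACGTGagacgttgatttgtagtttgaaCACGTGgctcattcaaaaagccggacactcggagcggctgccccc
Hmga2: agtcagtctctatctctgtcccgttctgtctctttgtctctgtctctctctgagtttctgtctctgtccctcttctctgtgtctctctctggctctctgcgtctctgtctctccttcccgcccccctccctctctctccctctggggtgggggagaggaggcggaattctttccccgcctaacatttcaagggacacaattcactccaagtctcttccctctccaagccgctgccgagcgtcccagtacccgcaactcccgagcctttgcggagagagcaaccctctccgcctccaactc

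The Igf2bp3 window held 2 CACGTG motifs, which began at bases 228 and 256, and the Lin28b window held 1, at base 202. The Hmga2 window held 0. Of all 32851 promoter windows of this length, 7.15% held at least 1 such motif and 0.594% held 2 or more. A GC box, GGGCGG on either strand, occurred once in the Hmga2 window, in neither of the other windows, and in 35.7% of all promoter windows. The windows differed in CpG content, with 25 CpG dinucleotides at Igf2bp3, 12 at Hmga2 and 8 at Lin28b, against a median of 7 over all windows. These matches describe letters only and say nothing of binding.

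In the fetal lists all 4 loci carried a wide H3K4me3 peak under H3K27ac. In the adult lists this arrangement was found at Hmga2 alone. At Igf2bp1 and Igf2bp3 the same DNA was covered mostly by H3K27me3 in the adult list, and at Lin28b by a row of short H3K27me3 peaks. H3K27me3 was listed at 0 in the Lin28b, Igf2bp3 and Hmga2 windows of the fetal list, and in the Hmga2 window of the adult list.

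**Figure D1:**
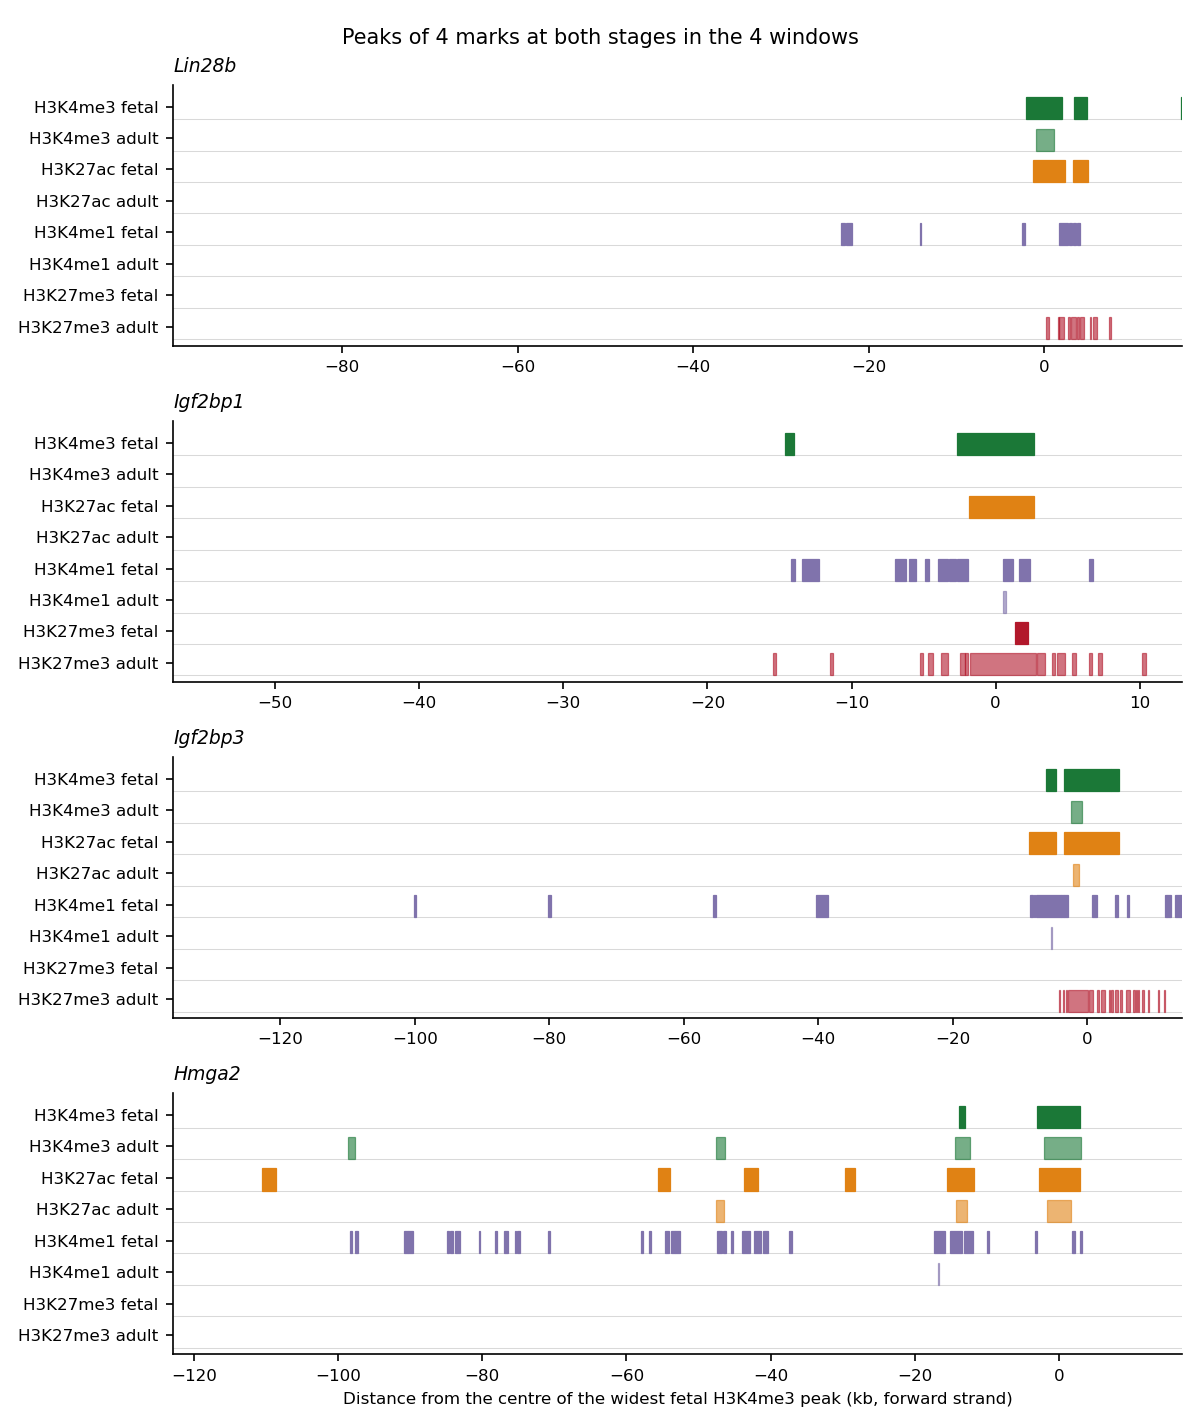
Peaks in the 4 windows, with the distance from the centre of the widest fetal H3K4me3 peak in kb on the x axis and 1 row per mark and stage. Bars are peaks drawn to scale, fetal in full and adult in pale colour. Adult H3K27me3 lies around the fetal H3K4me3 and H3K27ac peaks at Lin28b, Igf2bp1 and Igf2bp3, and the Hmga2 panel holds 0 H3K27me3 peaks.

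Lin28b, the blocker of let-7 maturation, had 3 fetal H3K4me3 peaks and 1 adult one in its window. The uppermost fetal peak was cut by the window edge. Its adult counterpart, 1604 bp wide and scored 653.42, began 0.273 kb beyond that edge and was not counted. The widest fetal peak, chr10:45187221-45191319, was 4099 bp wide and scored 3100. A score is the authors' own value from the peak caller and ranks a peak within its list only. Scores started at 50 and piled up at 3100 in the stronger lists, so that 32.2% of fetal H3K4me3 peaks scored at least as high. By width the peak ranked 433rd of 17104. The adult peak, chr10:45188417-45190443, was 2027 bp wide, lay wholly inside the fetal one and scored 412.68, which 69.5% of adult H3K4me3 peaks matched or passed.

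Fetal H3K27ac at Lin28b consisted of 2 peaks. The wider, chr10:45188065-45191638, was 3574 bp wide with a score of 1984.34, reached by 8.85% of fetal H3K27ac peaks, and the other, chr10:45192548-45194241, was 1694 bp wide with a score of 281.65. The latter lay over a second fetal H3K4me3 peak of 1454 bp, chr10:45192738-45194191, scored 772.2, for which the adult list had no counterpart. No adult H3K27ac peak was listed in the window. All H3K27ac called within the window was thus in the fetal list. An adult H3K27ac peak of 799 bp, scored 59.59, began 0.671 kb beyond the upper edge of the window.

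Adult H3K27me3 at Lin28b came as 10 peaks between 164 and 582 bp wide, with scores from 51.11 to 217.78. They spanned chr10:45189460-45196933, or 7474 bp, and filled 46.6% of that span. The row began inside the fetal H3K4me3 peak and ran past the second fetal H3K27ac peak. It covered 43.2% of the 5268 bp of fetal H3K27ac. The adult H3K4me3 peak had H3K27me3 over 416 of its 2027 bp.

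The upper edge of the Lin28b window cut through a further fetal H3K4me3 peak, chr10:45204860-45207148, of which 141 of 2289 bp lay inside. Taken beyond the edge as well, this peak overlapped 1604 bp of adult H3K4me3. It also overlapped H3K27ac of both stages (1711 fetal and 799 adult bp) and H3K27me3 of both stages (1070 fetal and 1329 adult bp). The other fetal H3K4me3 peaks of Lin28b overlapped neither adult H3K27ac nor fetal H3K27me3. The nearest peaks beyond that edge included a fetal H3K27me3 peak 1.078 kb away, 2866 bp wide and scored 577.03. It was the nearest fetal H3K27me3 peak to the gene's window, and the window limit decides that it is left out.

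Igf2bp1, an oncofetal protein that binds and stabilises messenger RNAs, had neither H3K4me3 nor H3K27ac listed in adult cells. Its main fetal H3K4me3 peak, chr11:95864405-95869745, was 5341 bp wide, the 123rd widest of the list, and scored 3100. A minor fetal H3K4me3 peak, chr11:95852444-95853053, was 610 bp wide and scored 57.76, close to the lowest score listed. The adult H3K4me3 list had 0 peaks in this window, against 2 in the fetal list. Fetal H3K27ac was a single peak, chr11:95865234-95869731, 4498 bp wide, at a score of 3100 that 3.53% of fetal H3K27ac peaks reached, and the adult list again had 0.

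Adult H3K27me3 at Igf2bp1 reached 15 peaks and 8859 bp, or 12.7% of the window. Its widest peak, chr11:95865296-95869881, was 4586 bp wide and scored 2737.63. In the adult H3K27me3 list of 22964 peaks it ranked 3rd by score and 4th by width. Together the adult peaks covered 98.6% of the fetal H3K27ac and 92.6% of the main fetal H3K4me3 peak. The other 14 peaks were between 158 and 609 bp wide and flanked it on both sides.

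Some H3K27me3 was listed at Igf2bp1 in the fetal cells too. The only fetal H3K27me3 peak of the 4 windows, chr11:95868382-95869312, was 931 bp wide and scored 87.51, which 72.2% of its list matched or passed. It lay inside the adult peak and inside fetal H3K4me3 and H3K27ac. Covered H3K27me3 length at Igf2bp1 was thus 9.52 times longer in the adult list, and it was not restricted to it.

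Igf2bp3, the family member through which Lin28b is reported to act in fetal HSCs, had the widest fetal domain of the 4 genes. Its main H3K4me3 peak, chr6:49162426-49169454, was 7029 bp wide and ranked 23rd by width of 17104, with a score of 3100. A further 2 fetal peaks flanked it, chr6:49159780-49161284 (1505 bp, score 317.42) and chr6:49169485-49170628 (1144 bp, score 314.45). The adult list had 1 H3K4me3 peak, chr6:49163484-49165106, 1623 bp wide and scored 255.03, which covered 23.1% of the main fetal peak.

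Fetal H3K27ac at Igf2bp3 covered 12033 bp in 2 peaks. The wider, chr6:49162495-49170589, was 8095 bp wide, ranked 146th by width of 23797 and scored 3100, and the other, chr6:49157272-49161209, was 3938 bp wide and scored 1169.24. Adult H3K27ac was a single peak of 892 bp, chr6:49163779-49164670, scored 58.21, and 95.1% of the adult H3K27ac list scored as high or higher. Covered H3K27ac length was 13.5 times longer in the fetal list. Of the 3 windows with adult H3K27me3, that of Igf2bp3 was the only one with a listed adult H3K27ac peak, and a weak one by rank.

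Adult H3K27me3 at Igf2bp3 consisted of 19 peaks that covered 8757 bp and filled 55.5% of a span of 15783 bp. The widest, chr6:49162999-49166093, was 3095 bp wide with a score of 1703.48, ranked 29th by score and 40th by width. It covered the adult H3K4me3 peak over all 1623 bp and the adult H3K27ac peak over all 892 bp. In the adult lists H3K4me3, H3K27ac and H3K27me3 were therefore all called over the same 892 bp. Whether these marks sat on the same nucleosomes, alleles or cells was not tested. The adult H3K27me3 peaks covered 72.9% of the main fetal H3K4me3 peak and 47.9% of fetal H3K27ac.

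The second fetal H3K27ac peak of Igf2bp3 lay outside the row of adult H3K27me3 peaks. It had H3K4me1 over 3728 of its 3938 bp, and adult H3K27me3 over 0 bp. The H3K4me1 peak beneath it, chr6:49158239-49162070, was 3832 bp wide and scored 1971.76, the 506th highest of 92784. It was also the widest and the highest-scoring H3K4me1 peak of the 4 windows. The adult list had a single H3K4me1 peak there, 147 bp wide.

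Hmga2, an architectural chromatin protein that binds AT-rich DNA and a let-7 target, differed from the other loci. Its main H3K4me3 peak was listed at both stages with a score of 3100. The fetal peak, chr10:119909904-119915915, was 6012 bp wide and the adult one, chr10:119910836-119916005, 5170 bp, and they shared 5080 bp. H3K27ac was also listed there at both stages, over 5691 bp with a score of 3100 in the fetal list and over 3359 bp with a score of 659.8 in the adult list. In rank, 3.53% of fetal and 31.1% of adult H3K27ac peaks scored at least as high. H3K27me3 was listed at 0 in both.

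The adult H3K4me3 list had 4 peaks at Hmga2 against 2 in the fetal list, covering 9329 and 6949 bp. A peak below the main one was shared, at 1987 adult and 937 fetal bp, with scores of 740.27 and 107.63 in their own lists. The peaks chr10:119814257-119815224 (968 bp, score 101.84) and chr10:119865357-119866560 (1204 bp, score 119.9) were in the adult list only. The latter had an adult H3K27ac peak of 1153 bp with a score of 57.67. Hmga2 was thus the only member with a longer adult than fetal H3K4me3 length. With only peaks at or above the median score of each list, which leaves the main peak alone at either stage, the direction turned and the lengths were 5170 adult and 6012 fetal bp.

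Among the 4 loci, only the Hmga2 window held distal H3K27ac peaks, meaning peaks that overlap no H3K4me3 peak. Of its 6 fetal H3K27ac peaks, 4 overlapped no H3K4me3 peak of either stage, with widths from 1496 to 2036 bp and scores from 142 to 285.7. Each of these 4 lacked an adult H3K27ac peak, and 2 of them overlapped fetal H3K4me1. Over the genome 32.3% of H3K27ac regions, merged over both stages, came from fetal peaks alone. The other 3 loci had 0 distal H3K27ac peaks at either stage. An overlap of 1 bp was enough to leave a peak out. The 3938 bp fetal H3K27ac peak of Igf2bp3, left out in this way, had 1430 bp under fetal H3K4me3. By length, fetal H3K4me3 covered 40.1% of fetal H3K27ac at Hmga2, near the 46.2% over the genome. At Lin28b, Igf2bp1 and Igf2bp3 it covered 89.4%, 100% and 78.9%. The share of distal peaks over the whole list was not computed. Total H3K27ac length at Hmga2 was 16517 fetal and 6043 adult bp, a ratio of 2.73.

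**Figure D2:**
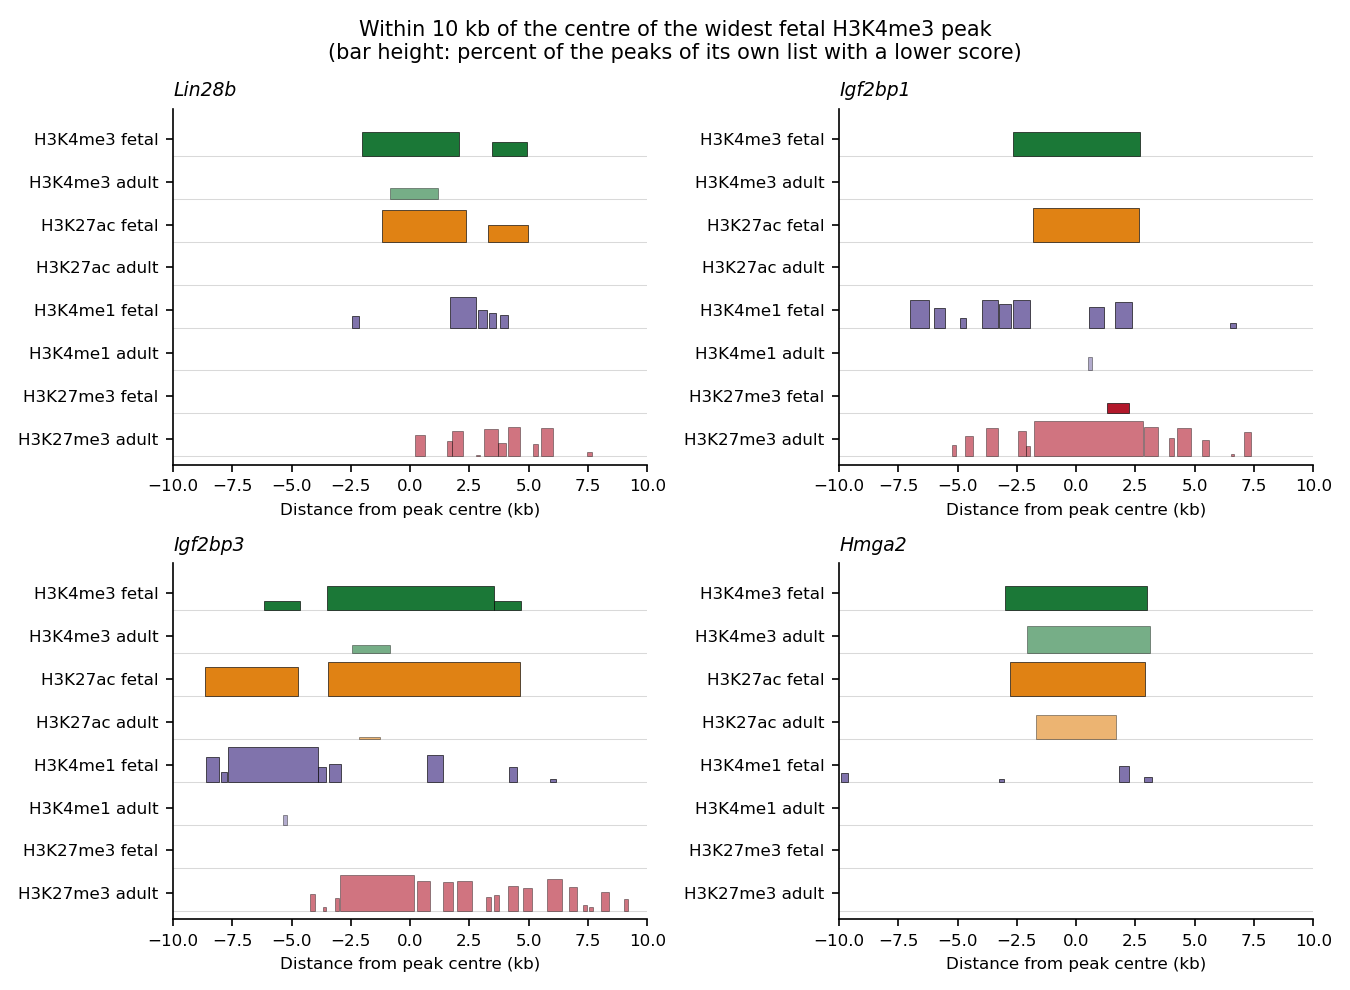
Peaks within 10 kb of the centre of the widest fetal H3K4me3 peak of each locus, with distance in kb on the x axis and 1 row per mark and stage. The height of a bar is the percent of peaks of its own list with a lower score, so heights compare only within a row. The tallest adult H3K27me3 bars are the 4586 bp peak at Igf2bp1 and the 3095 bp peak at Igf2bp3.

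The main fetal H3K4me3 peak was covered to different extents by the adult lists. Adult H3K4me3 covered 84.5% of it at Hmga2, 49.5% at Lin28b, 23.1% at Igf2bp3 and 0% at Igf2bp1. Adult H3K27ac covered 55.9% at Hmga2, 12.7% at Igf2bp3 and 0% at Lin28b and Igf2bp1. Adult H3K27me3 took the opposite order to adult H3K4me3, with 92.6% at Igf2bp1, 72.9% at Igf2bp3, 21.7% at Lin28b and 0% at Hmga2. Fetal H3K27ac covered between 79.4% (Lin28b) and 99.0% (Igf2bp3) of the same peaks. Over the genome, adult H3K4me3 covered 90.4% of the length of fetal H3K4me3, adult H3K27ac 70.2%, adult H3K27me3 5.01% and fetal H3K27ac 73.3%. The adult H3K4me3 and H3K27ac shares at Hmga2 were thus below those of the genome. With 4 loci and 1 list per stage, these orders have no error attached.

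Over the 4 windows together, H3K4me3 covered 28272 bp in 10 fetal peaks and 12979 bp in 6 adult peaks. H3K27ac covered 38316 bp in 11 fetal and 6935 bp in 4 adult peaks. H3K4me1 covered 39356 bp in 67 fetal and 467 bp in 3 adult peaks. H3K27me3 covered 931 bp in 1 fetal and 21101 bp in 44 adult peaks. The log2 ratios of fetal to adult length were 1.12, 2.47, 6.40 and -4.50. With windows widened by 25 kb the H3K27me3 ratio was -2.34, as the fetal peak beside Lin28b and another beside Igf2bp1 came in. Without Hmga2 the H3K4me3 and H3K27ac ratios were 2.55 and 4.61.

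**Figure D3:**
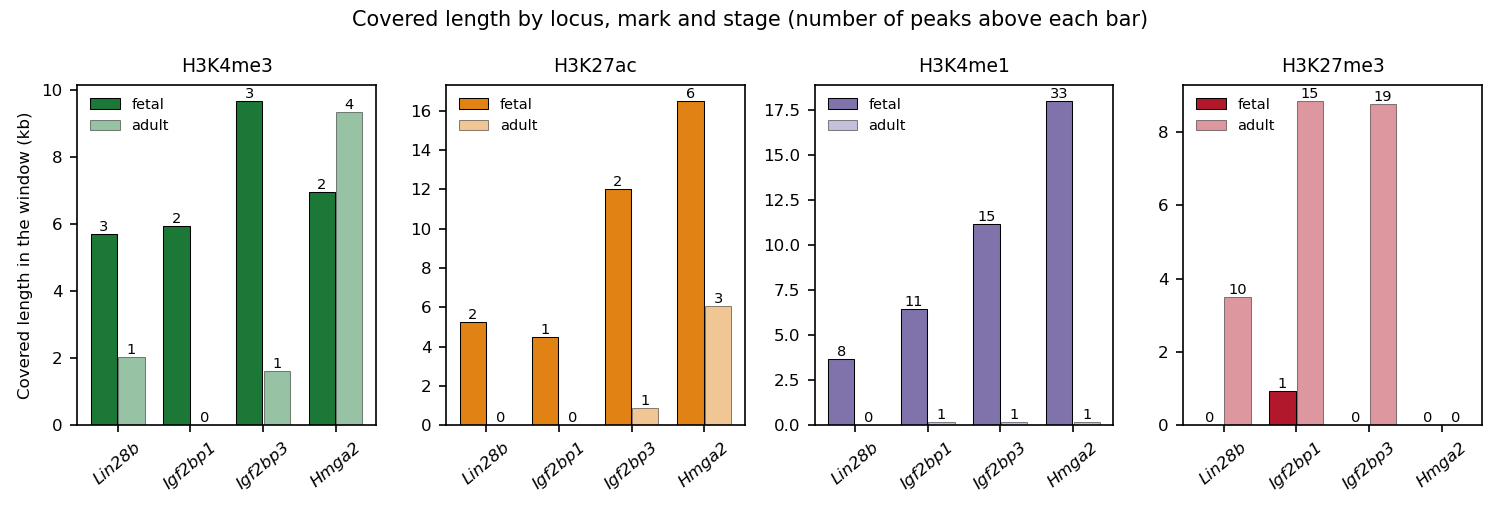
Covered length in kb (y axis) at each locus (x axis), 1 panel per mark, with fetal bars in full and adult bars in pale colour and the number of peaks above each bar. H3K27ac and H3K4me1 bars are taller in the fetal list at all 4 loci, and H3K27me3 bars are taller in the adult list at Lin28b, Igf2bp1 and Igf2bp3.

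These ratios stand beside the ratios of the whole lists, which themselves differ in size. Over all peaks, covered length was 31.8 fetal and 32.2 adult Mb for H3K4me3, 50.4 and 33.4 Mb for H3K27ac, 57.3 and 2.81 Mb for H3K4me1, and 38.3 and 9.34 Mb for H3K27me3. The log2 ratios of the whole lists were -0.02, 0.59, 4.35 and 2.04. The H3K27me3 difference at the 4 loci therefore had the opposite sign to that of the lists. The H3K4me1 difference had the same sign as that of the lists, whose adult H3K4me1 peaks are few and narrow.

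Merging the peaks of both stages gave 12 H3K4me3 regions in the windows, of which 5 came from fetal peaks alone and 2 from adult peaks alone. Over the genome these shares were 8.5% for fetal-only and 6.65% for adult-only H3K4me3 regions. The fetal-only regions were both regions of Igf2bp1, 2 of 3 at Igf2bp3 and 1 of 3 at Lin28b, and both adult-only regions were at Hmga2. Of 12 H3K27ac regions 8 were fetal-only and 1 adult-only, against 32.3% and 8.12% over the genome. Of 67 H3K4me1 regions 64, or 95.5%, were fetal-only and 0 adult-only, and over the genome these shares were 89.5% and 1.67%. A fetal-only H3K4me1 region was therefore the usual case everywhere and says little about these genes.

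For H3K27me3 the windows held 44 regions, of which 43 were adult-only and 0 fetal-only. Over the genome 10.5% of H3K27me3 regions were adult-only and 57.9% fetal-only. The 1 shared region was the widest peak of Igf2bp1. Adult H3K27me3 peaks were short, with a median width of 278 bp against 1406 bp in the fetal list, so neighbouring short peaks count as separate regions. With peaks within 1 kb merged, the windows held 8 regions, of which 0 were fetal-only. Since the genes were selected on these lists, nothing is concluded from the distance between the shares.

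The same was described per locus, with a mark taken as called when its covered length was at least 2 times longer at 1 stage, and with bins of 100 kb that hold the mark at either stage as background. H3K4me3 was called as fetal at 3 of 4 loci, the exception being Hmga2, and in 5.77% of bins. H3K27ac was called as fetal at 4 of 4 loci and in 33.1% of bins, and H3K4me1 at 4 of 4 loci and in 98.9% of bins. With equal numbers of top-ranked peaks in the fetal and adult lists, the H3K4me1 call was lost at Lin28b, with 0 bp at both stages, and turned at Igf2bp1, with 0 fetal and 167 adult bp. It remained at Igf2bp3, with 5512 fetal and 147 adult bp, and at Hmga2, with 5376 and 153 bp. H3K27me3 was called as adult at 3 of the 3 loci that hold it and in 4.53% of bins. Both differences together, longer fetal H3K27ac and longer adult H3K27me3, were called at these 3 loci and in 1.1% of the 3451 bins that hold both marks, or 38 bins, of which 4 overlapped the windows. The H3K27me3 and joint calls at Lin28b depend on the window limit. A fetal H3K27me3 peak of 2866 bp began 1.078 kb beyond its upper edge, against 3485 adult bp inside. With windows widened by 25 kb that peak comes in, and adult H3K27me3 at Lin28b is less than 2 times longer.

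**Figure D4:**
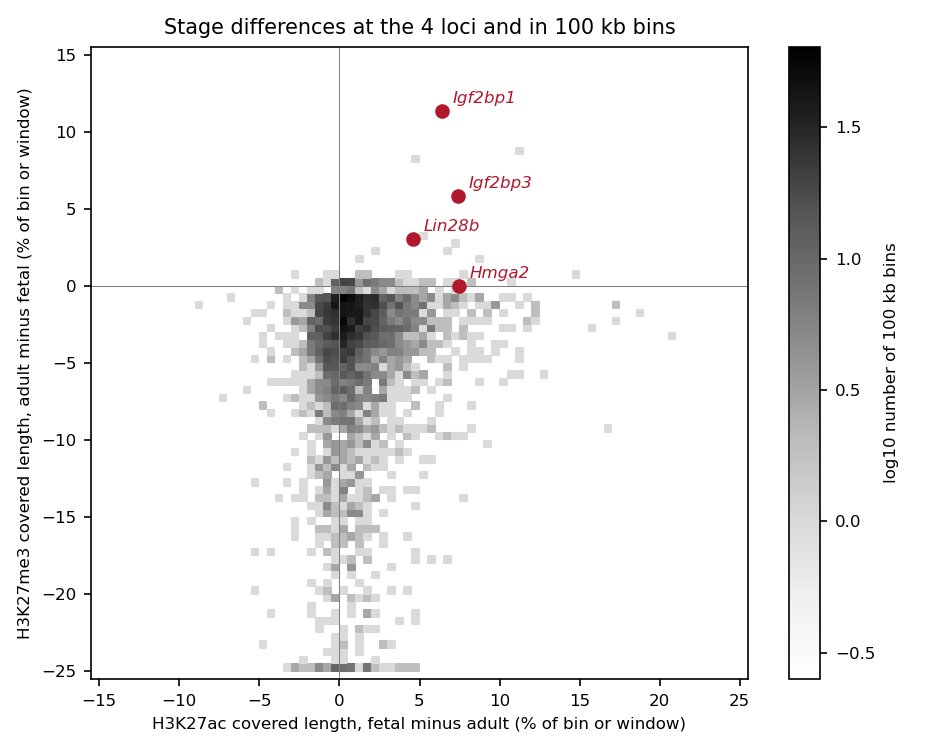
Stage difference of H3K27ac (x axis, fetal minus adult) against that of H3K27me3 (y axis, adult minus fetal), as percent of the length of a 100 kb bin or of a window. Grey squares are bins that hold both marks at either stage, shaded by the log10 of their number, with values beyond the plotted range drawn at its edge, and red points are the 4 windows. Lin28b, Igf2bp1 and Igf2bp3 lie above 0 on both axes, and Hmga2 lies at 0 on the y axis.

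Of the 10 fetal H3K4me3 peaks in the windows, 5 had H3K27me3 at least 2 times longer in the adult list, against 0.398% of all 17104 fetal H3K4me3 peaks. The same 5 also had H3K27ac at least 2 times longer in the fetal list, against 0.105%, or 18 peaks in all. They were 2 peaks at Lin28b, 1 at Igf2bp1 and 2 at Igf2bp3. Adult H3K27me3 in them covered between 607 and 5127 bp. The other fetal peaks of these loci, 1 at each, did not meet both conditions, nor did either peak at Hmga2.

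H3K27me3 in the adult list rarely lay over fetal H3K27ac elsewhere. Over the genome 0.587% of the length of fetal H3K27ac was covered by adult H3K27me3, compared with 43.2% at Lin28b, 98.6% at Igf2bp1, 47.9% at Igf2bp3 and 0% at Hmga2. Over the genome 95.3% of the length of adult H3K27me3 was also covered by fetal H3K27me3. In the windows that shared length was 931 of 21101 bp, all of it at Igf2bp1.

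The main peaks, each the widest fetal H3K4me3 peak of its window, were wide for their lists. The widest of several peaks ranks high in part by this choice, and the widest peaks of other windows were not compared. Of fetal H3K4me3 peaks, 0.134% were at least as wide as the main peak of Igf2bp3, 0.357% as that of Hmga2, 0.719% as that of Igf2bp1 and 2.53% as that of Lin28b. For the widest fetal H3K27ac peaks the shares were 0.614% at Igf2bp3, 2.11% at Hmga2, 4.47% at Igf2bp1 and 9.03% at Lin28b. In the adult H3K27me3 list, 0.0174% of peaks were as wide as the widest at Igf2bp1 and 0.174% as that at Igf2bp3. The widest at Lin28b, 582 bp, was matched by 17.3%, so that its H3K27me3 was listed as ordinary short peaks.

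**Figure D5:**
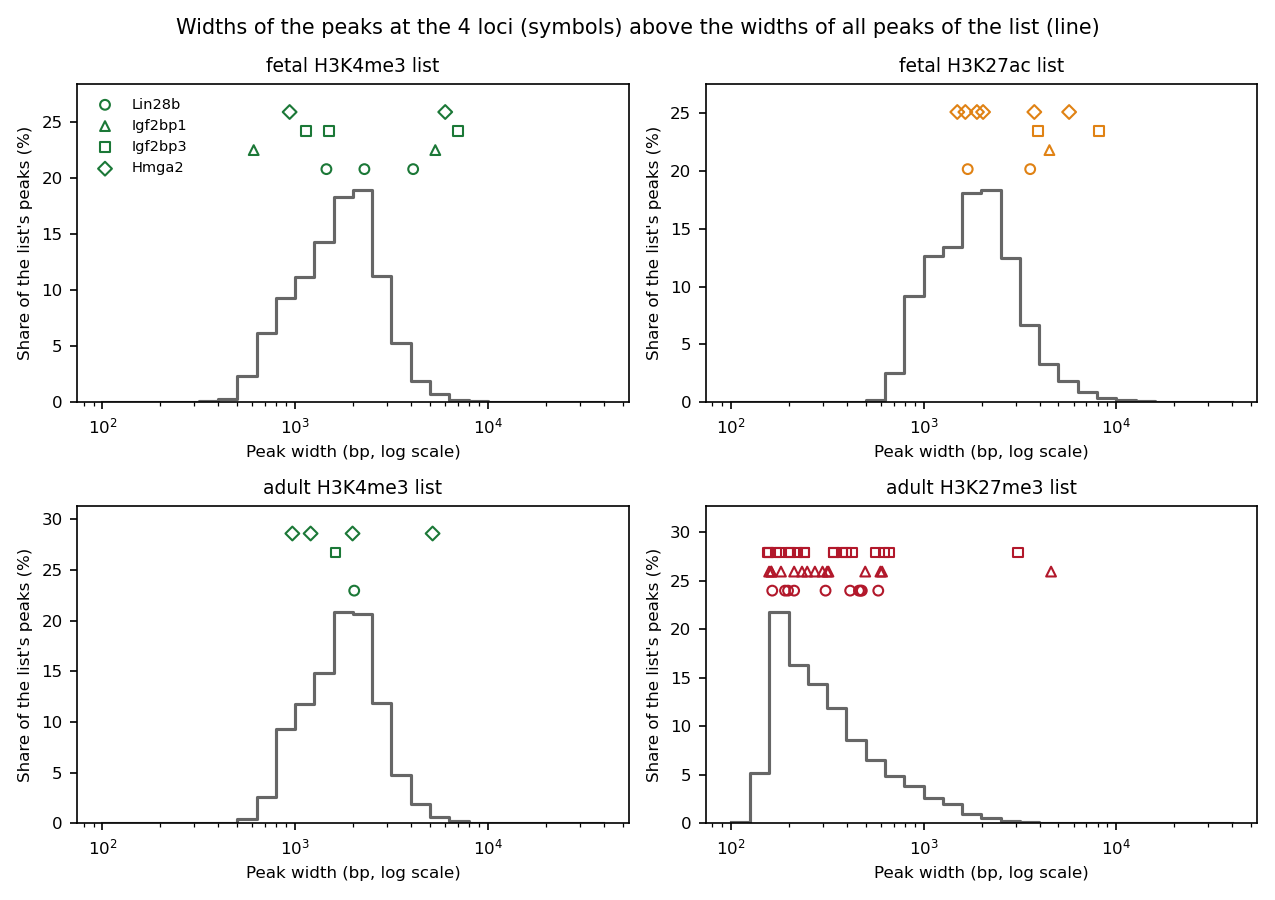
Peak width in bp (x axis, log scale) of all peaks of a list (line, share of the list in percent on the y axis) and of the peaks at the 4 loci (symbols, placed above the line with 1 row per gene). The rightmost symbols are the 7029 bp fetal H3K4me3 peak and the 8095 bp fetal H3K27ac peak of Igf2bp3, the 5170 bp adult H3K4me3 peak of Hmga2 and the 4586 bp adult H3K27me3 peak of Igf2bp1.

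Fetal H3K4me1 was listed at all 4 loci, with 8 peaks at Lin28b, 11 at Igf2bp1, 15 at Igf2bp3 and 33 at Hmga2. Most were narrow, with medians of 348.5, 652, 444 and 421 bp, against 429 bp over the list. The highest-scoring and widest was 1070 bp with a score of 365.51 at Lin28b, chr10:45190955-45192024, and 1170 bp with a score of 333.15 at Igf2bp1, chr11:95853652-95854821. At Hmga2 it was 1574 bp with a score of 704.97, chr10:119897874-119899447. Adult H3K4me1 was listed at 0 at Lin28b and as 1 peak of 167, 147 and 153 bp at Igf2bp1, Igf2bp3 and Hmga2, with scores from 55.24 to 57.72.

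Some of the fetal H3K4me1 peaks lay apart from all H3K4me3. There were 5 of these at Lin28b, 7 at Igf2bp1, 11 at Igf2bp3 and 24 at Hmga2. Fetal H3K27ac overlapped 0 of them at Lin28b and Igf2bp1, 2 at Igf2bp3 and 3 at Hmga2. Adult H3K27me3 overlapped 4 of all 8 fetal H3K4me1 peaks at Lin28b, 6 of 11 at Igf2bp1, 7 of 15 at Igf2bp3 and 0 of 33 at Hmga2. An overlap of 1 bp is enough in these counts, and none of them was made over all fetal H3K4me1 peaks. By length, adult H3K27me3 covered 34.7% of fetal H3K4me1 at Lin28b, 39.8% at Igf2bp1, 12.0% at Igf2bp3 and 0% at Hmga2. Over the genome it covered 3.99%.

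By the gene order of the RefSeq table, the protein-coding neighbours are Bves and Hace1 for Lin28b, B4galnt2 and Gip for Igf2bp1, Malsu1 and Tra2a for Igf2bp3, and Llph and Msrb3 for Hmga2. Peaks just outside the windows were not members. A domain with fetal and adult H3K4me3 and H3K27ac lay 4.771 kb below the Igf2bp3 window, with adult peaks of 2209 and 1814 bp, and another lay 15.371 kb above the Igf2bp1 window, with adult peaks of 1875 and 1491 bp. At the latter the H3K4me3 scores were 3100 in the fetal and 2486.86 in the adult list. Adult H3K27ac was thus listed beside both windows, while the Igf2bp1 window itself held none and the Igf2bp3 window a single peak of 892 bp.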

How the data were processed

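ChIP-seq of 4 histone marks was analysed from 8 peak lists, 1 per mark and stage. Reads were aligned with Bowtie2 2.2.2 and the build is mm9, per the submitters' processing notes. The names of the deposited peaks begin with MACS. The caller's version, settings and control are not given in the sources used here. The lists are named as combined, so each was taken as 1 list for 2 replicates. Whether reads or calls were combined is not given in the sources used here. The score of each peak is the authors' deposited value, has no stated unit, and was used only to rank or filter peaks within its list. Read depth is unknown. Single replicates, coverage and the 4 inputs were not analysed here.

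Only autosomal, X and Y peaks were kept. Each peak that overlaps a window by at least 1 bp is a member, and covered length was clipped to the window, with 1-based coordinates. The members and lists were chosen with earlier results of these data known. The rule for named peaks was all H3K4me3 peaks and, for other marks, the widest and the highest-scoring peak of each window and stage; other named peaks were chosen after their values were seen. All 4 genes are reported whatever their values. No test was made. Alternatives changed the score limit, the number of peaks, merging, window size, overlap, bin size and the loci included. The other genes of the pathway, cell markers and exon or intron positions need mm9 gene positions and were not analysed here. Interval code was tested on simulated data. Python 3.11.15, numpy 2.4.6, pandas 2.3.3, scipy 1.17.1 and matplotlib 3.10.9 were used.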

Additional observations from a re-analysis of the deposited data

How the results depend on the processing

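No paired analysis was possible because a list holds both replicates together and nothing was tested, and for the same reason neither replicate was removed alone. A ratio was taken as moved when it changed by more than 1.5-fold, and a share when it left its 95% Clopper-Pearson interval, which covers counting error only. Depth is unknown. Each alternative itself adds, removes or joins peaks, and no other cause was tested. The sign of the length ratio over the 4 loci was kept for each mark under each alternative that gave a value.

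With peaks at or above the median score of their list, the log2 ratio for H3K4me3 was 2.13 in length and 2.32 in number, with 80% of regions fetal-only, and for H3K27ac it was 3.14 and 2.58. Fetal-only H3K4me1 was then 100%. The log2 ratio of H3K4me3 length at Hmga2 changed sign, from -0.42 to 0.22. Ratios for H3K4me1 and H3K27me3 could not be computed, since adult H3K4me1 and fetal H3K27me3 were then at 0. With equal numbers of top-ranked peaks, H3K4me1 gave 4.54 in length, 1 in number and 57.1% fetal-only, and H3K27me3 gave -4.86 in number. H3K4me1 was then at 0 at both stages at Lin28b, and turned direction at Igf2bp1, with 0 fetal and 167 adult bp. With peaks within 1 kb merged, H3K4me1 gave 3.42 in number and H3K27me3 -5.18 in length and -3.00 in number. With windows widened by 25 kb, H3K27me3 gave -2.34 in length and -4.06 in number, as fetal peaks beside Lin28b and Igf2bp1 came in. With 50% of a region covered as the limit for sharing, fetal-only H3K4me1 was 100%. Without Hmga2 the length ratio was 2.55 for H3K4me3 and 4.61 for H3K27ac, and without Igf2bp3 it was -3.73 for H3K27me3. Without Igf2bp1 fetal H3K27me3 was at 0 and gave no ratio. With bins of 150 kb, the background share was 5.30% for longer fetal H3K4me3, against 5.77%, and 3.82% for longer adult H3K27me3, against 4.53%.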

Other observations

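Outside the windows, 13 further fetal H3K4me3 peaks had both fetal H3K27ac and adult H3K27me3 at least 2 times longer than at the other stage. They lay on 9 chromosomes, and each of the 13 kept an adult H3K4me3 peak, whereas 3 of the 5 peaks at Lin28b, Igf2bp1 and Igf2bp3 did not. These 3 were the main peak of Igf2bp1 and the smaller peaks of Lin28b (1454 bp) and Igf2bp3 (1144 bp). The main peaks of Lin28b and Igf2bp3 had 2027 and 1623 bp of adult H3K4me3. Over the genome 8.5% of H3K4me3 regions were fetal-only. Among the 18, the 2 with the longest adult H3K27me3 were the main peaks of Igf2bp3 (5127 bp) and Igf2bp1 (4948 bp). The next was chr16:22160327-22164282, 3956 bp wide, with 2658 bp of adult and 527 bp of fetal H3K27me3, 3325 bp of fetal H3K27ac and 0 bp of adult H3K27ac. It was followed by chr6:120614875-120618205 with 1786 bp and chr3:121128400-121131508 with 1779 bp of adult H3K27me3. These peaks were singled out after their values were seen, and no gene was assigned to them.

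A peak of this kind also lay 58.6 kb above the Hmga2 window, which itself had no H3K27me3. The fetal H3K4me3 peak chr10:119988601-119990750 had 2015 bp of fetal and 0 bp of adult H3K27ac, and 271 bp of adult H3K27me3. That H3K27me3 was a single peak scored 50.98, close to 50, the lowest score of its list. On chromosome 2, chr2:17967885-17971253 and chr2:17946881-17951174 lay close together, with 1068 and 268 bp of adult H3K27me3.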
